A study of Mus musculus with 8 samples.

Results

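The 7 genes of pyrimidine nucleoside breakdown, Tymp, Upp1, Upp2, Dpyd, Dpys, Upb1 and Cda, were taken from the 25239 gene symbols of the count files by their names, and all 7 were present and had enough reads to be tested. They were measured by bulk RNA-Seq in liver from 4 control and 4 Smo-KO mice. All 8 were adult males on a C57Bl6/J background that carried floxed Smo alleles (Smo tm2Amc) on both chromosomes, controls included, although the controls are labelled WT. All had eaten the CDA-HFD, a choline-deficient, amino acid–defined high-fat diet that induces steatohepatitis, for 6 weeks, and all received AAV8-TBG, an adeno-associated virus with a promoter active in hepatocytes, by tail vein 1 week before sacrifice. The control vector encoded luciferase and the Smo-KO vector Cre recombinase, a design that targets Smo in hepatocytes and leaves it in the other cells of the liver. Mice on chow or without a vector were not analysed here. Libraries held between 8203299 and 9999732 reads on genes. The RNA was that of whole liver, in which a lower value can come from fewer cells of a type or from less RNA per cell, and these cannot be told apart. Albumin (Alb), a hepatocyte marker, was the most abundant of the hepatocyte genes at 16570 ± 973 CPM in control and 15338 ± 897 CPM in Smo-KO livers (mean ± SD over 4 mice per group), where CPM are counts scaled by TMM to a common library size.

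Pyrimidine nucleosides are broken down in a fixed order. Cytidine deaminase (Cda) turns cytidine into uridine, the uridine phosphorylases (Upp1, Upp2) split uridine into uracil and a ribose phosphate, and thymidine phosphorylase (TP, the product of Tymp) splits thymidine into thymine and a deoxyribose phosphate. In mice, uridine phosphorylase can also cleave thymidine. Dihydropyrimidine dehydrogenase (Dpyd) then reduces the free bases, dihydropyrimidinase (Dpys) opens their ring, and beta-ureidopropionase (Upb1) releases beta-alanine from uracil and beta-aminoisobutyrate from thymine. The liver is a main site of these last steps, and loss of TP in people raises thymidine and damages mitochondrial DNA. The study measured TP protein in livers of this kind, and the counts address whether the mRNA of Tymp and of the enzymes around it differed as well.

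Smo mRNA separated the groups completely, with each Smo-KO value below each control value, while none of the 7 breakdown genes separated the groups. Control livers 1 to 4 had 8.17, 8.49, 8.74 and 8.21 CPM of Smo, and Smo-KO livers 1 to 4 had 5.67, 3.93, 4.27 and 4.37 CPM. The edgeR log2 fold change of Smo was -0.88 ± 0.16 (standard error, adjusted p 0.0957, and 0.00613 by DESeq2). Of the breakdown genes, 0 of 7 passed an adjusted p of 0.05 (edgeR, quasi-likelihood F test), as did 0% of all 12977 genes tested. At an unadjusted p under 0.05 the number was also 0 of 7, against 13.8% of all genes (1797), and DESeq2's Wald test called 0 of 7, against 1.36% of the genes to which it gave an adjusted p (163). In 0 of 7 did the values of the groups not overlap, against 7.37% of all genes. The log2 fold change of Smo-KO against control was below 0 for 4 of 7, against 50.1% of all genes. It ran from -0.40 for Tymp to 0.52 for Upp2, with a median of -0.0074, where the median over all genes was -0.00084.

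**Figure D1:**
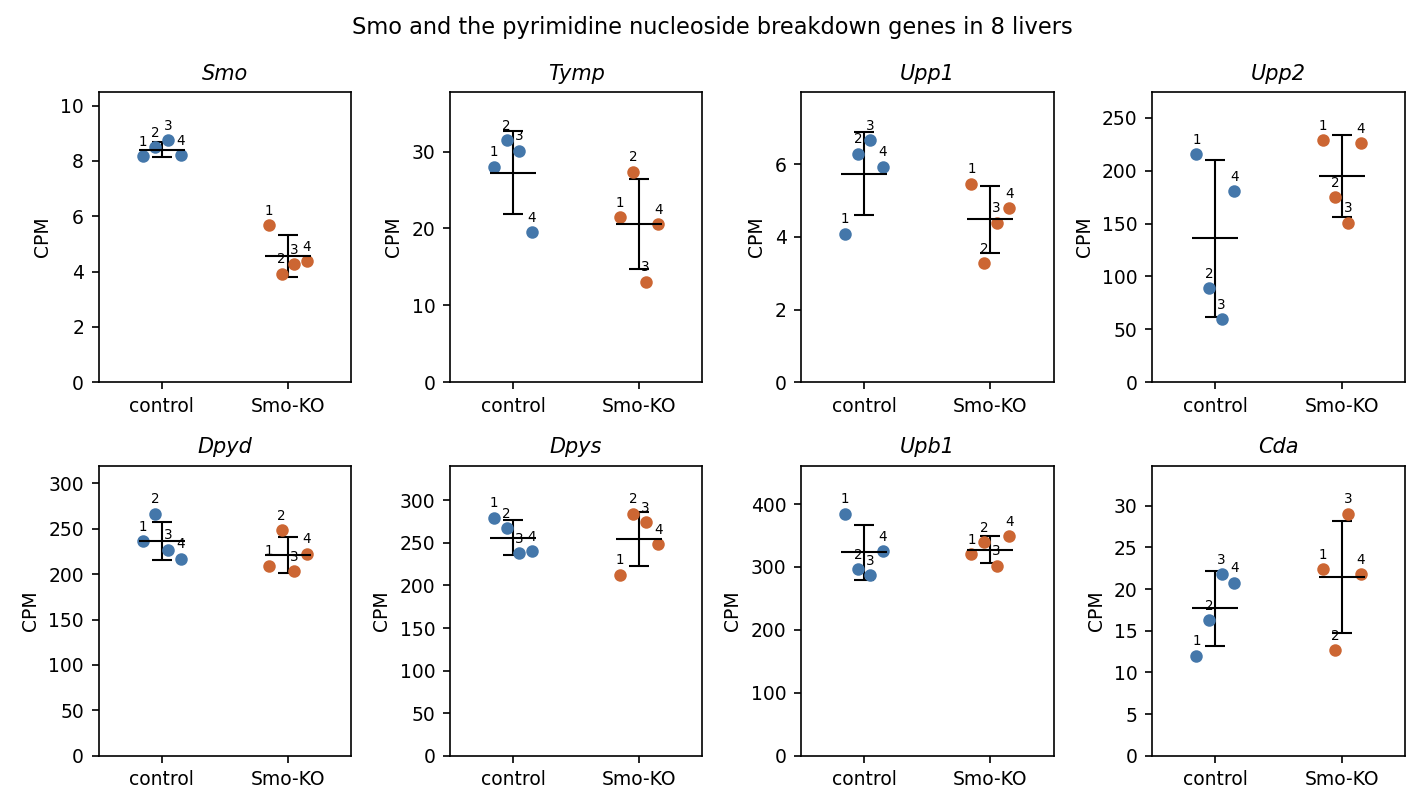
Level of Smo and of the 7 breakdown genes in each liver in CPM (counts scaled to library size), with points numbered by mouse and bars giving the group mean ± SD (n = 4 each). The groups are apart for Smo and overlap for each of the 7 genes.

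Tymp lies at chr15:89371931-89377039 on the minus strand of GRCm38, where GENCODE M21 gives it 11 exons. Its 250 bases upstream of the start given by RefSeq (GRCm38.p6) are shown because Tymp encodes the protein the study followed. Those upstream of the inner start of Upp2 are shown because, of the breakdown genes, Upp2 varied most among control livers. Both read 5′ to 3′ toward the start, and capitals mark CCAAT, read on either strand, in the first and TATAAA in the second.
Tymp, chr15:89377037-89377286, minus strand: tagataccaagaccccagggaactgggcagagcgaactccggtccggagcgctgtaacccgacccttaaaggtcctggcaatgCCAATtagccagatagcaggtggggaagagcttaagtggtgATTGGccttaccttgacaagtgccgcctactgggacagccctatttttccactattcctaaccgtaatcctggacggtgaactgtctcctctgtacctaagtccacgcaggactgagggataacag
Upp2, inner start, chr2:58754934-58755183, plus strand: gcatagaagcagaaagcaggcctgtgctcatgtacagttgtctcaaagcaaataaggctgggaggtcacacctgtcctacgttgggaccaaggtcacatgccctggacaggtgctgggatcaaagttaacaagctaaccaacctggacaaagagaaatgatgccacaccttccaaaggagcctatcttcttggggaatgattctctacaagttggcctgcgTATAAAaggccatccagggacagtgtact
Windows of this kind were found for 6 of the 7 genes, all but Dpys, 9 windows in total because Upp1 and Upp2 have several starts. They were searched on both strands for the antioxidant response element core that Nrf2 binds (TGACNNNGC), the Gli site (TGGGTGGTC), the E-box (CACGTG), the TATA box (TATAAA) and the CCAAT box. None of these motifs overlapped another in the windows shown. The window of Tymp held CCAAT 2 times, with the matches beginning 167 and 126 bases before the start. The windows of Upb1 (2 times) and of the outer Upp2 start (1 time) held it as well, 3 of the 9 in all, against 33.8% of all 32851 windows. None of the 9 windows held TGACNNNGC, TGGGTGGTC or CACGTG, which were present in 10.2%, 0.225% and 6.02% of all windows. TATAAA was found only in the window of the inner Upp2 start, where it began 29 bases before the start, and in 12.4% of all windows. These are matches of letters, and no factor was measured at them here.

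Tymp mRNA averaged 75.6% of the control level in Smo-KO livers, a difference within the spread between mice. Control livers 1 to 4 had 28.0, 31.5, 30.1 and 19.5 CPM of Tymp. Smo-KO livers 1 to 4 had 21.4, 27.4, 13.0 and 20.6 CPM. Control liver 4 lay below 3 of the 4 Smo-KO livers, and Smo-KO liver 3 had the lowest value of all, so the groups overlapped. Means were 27.3 ± 5.38 CPM and 20.6 ± 5.88 CPM (SD of 4 mice; two-sided exact permutation p = 0.171). edgeR estimated a log2 fold change of -0.40 with a standard error of 0.20 (unadjusted p 0.0650, adjusted p 0.394), and its 95% interval ran from 56.4% to 102% of the control level. The unadjusted p of DESeq2's Wald test was 0.0564. An equal level in both groups is inside this interval. Without Smo-KO liver 3, which also had the fewest reads on genes, the log2 fold change was -0.24, and without Smo-KO liver 2 it was -0.56 (edgeR unadjusted p 0.0141).

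The counts of Tymp may depend on how reads over shared exons were handled, which is not stated. Sco2, which encodes an assembly factor of cytochrome c oxidase, lies at chr15:89371637-89373846 on the same strand, and Ncaph2, a condensin subunit, runs into the same bases from the opposite strand. Of the 2037 exon bases of Tymp, 856 (42.0%) are also exon bases of Sco2, which touch 3 of the 11 Tymp exons, and 1181 are exon bases of neither Sco2 nor Ncaph2. Sco2 is listed at 0 reads in all 8 livers, and 1150 of its 1253 exon bases are also exon bases of Tymp or Ncaph2. The files count reads on more than 1 gene separately, at 2.55% ± 0.0719 (control) and 2.51% ± 0.0456 (Smo-KO) of all reads, without saying which genes they touch. Whether reads over the shared exons of Tymp are among them was not tested. The other neighbors tested were Odf3b and Ncaph2. Odf3b, upstream of Tymp, averaged 6.78 ± 1.77 and 8.99 ± 1.44 CPM (edgeR log2 fold change 0.41, adjusted p 0.375), and Ncaph2 91.6 ± 5.60 and 94.9 ± 2.20 CPM (log2 fold change 0.05).

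**Figure D2:**
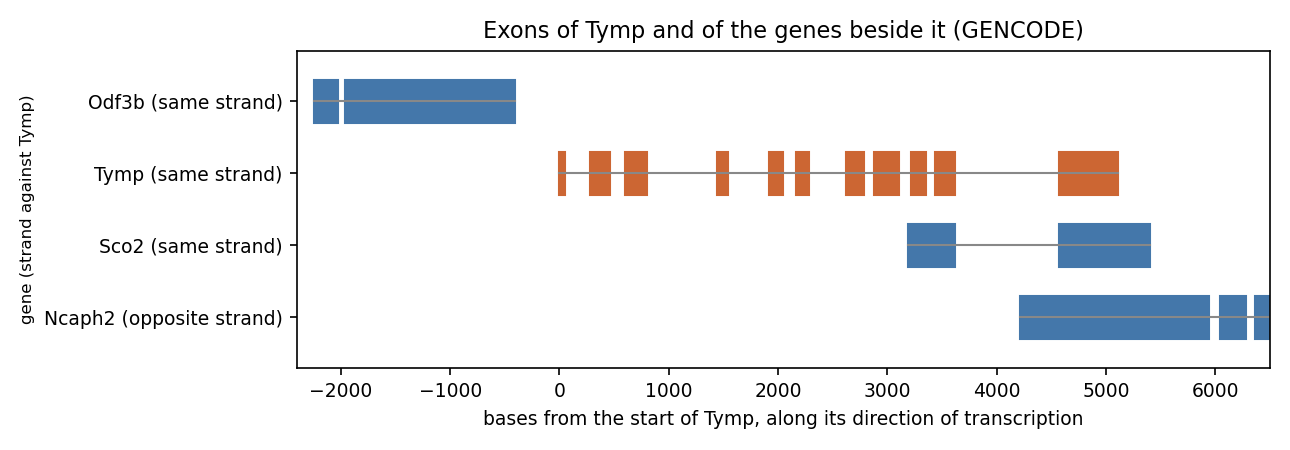
Exons (boxes) of Tymp and of Odf3b, Sco2 and Ncaph2 in GENCODE M21, by distance in bases from the start of Tymp along its direction of transcription. The last 3 exons of Tymp overlap those of Sco2, and the last 1 also overlaps Ncaph2, whose exons continue past the right edge.

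The uridine phosphorylases differed from each other in level and in spread. Upp1 (chr11:9118103-9136170, plus strand), the form found in most tissues, had only 30 to 67 reads per liver. Its control values were 4.08, 6.29, 6.66 and 5.93 CPM, and its Smo-KO values 5.46, 3.27, 4.39 and 4.80 CPM. Control liver 1 fell among the Smo-KO livers, and the other controls lay above all of them. The means were 5.74 ± 1.14 and 4.48 ± 0.919 CPM (edgeR log2 fold change -0.36 ± 0.21, standard error, adjusted p 0.467). The log2 fold change was -0.23 without Smo-KO liver 2 and -0.49 without control liver 1 (edgeR unadjusted p 0.0298). Counting error alone was 14.3% at its median read count, against 6.63% for Tymp.

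Upp2 (chr2:58567298-58792971, plus strand), a form typical of liver, varied most of the breakdown genes among control livers. Control livers 1 to 4 had 216, 88.9, 59.3 and 180 CPM, and Smo-KO livers 1 to 4 had 229, 175, 151 and 226 CPM. Control livers 2 and 3 were below every Smo-KO liver, and control livers 1 and 4 lay among the Smo-KO livers. Among controls the highest value was 3.63 times the lowest, against 1.52 times among Smo-KO livers, and the 2 spreads were not tested against each other. The mean was 136 ± 73.9 CPM in control and 195 ± 38.6 CPM in Smo-KO livers (SD of 4 mice; two-sided exact permutation p = 0.229). Its log2 fold change was 0.52 ± 0.31 (standard error, edgeR adjusted p 0.485), and the 95% interval ran from 89.7% to 230% of the control level. With the replicate number as a block, the log2 fold change was 0.67 ± 0.18 (standard error, edgeR unadjusted p 0.00440, adjusted p 0.149), though no label pairs the mice. The biological coefficient of variation that edgeR assigned to Upp2, 30.9%, was above that of 98.6% of all genes tested, whose median was 12.0%. Without control liver 3, the lowest, the log2 fold change was 0.27, and without control liver 1, the highest control, it was 0.83 (edgeR unadjusted p 0.0168).

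Cda (chr4:138338424-138367992, minus strand), which feeds cytidine into the pathway, also varied between mice. Its control values were 12.0, 16.3, 21.8 and 20.8 CPM, and its Smo-KO values 22.4, 12.7, 29.0 and 21.7 CPM. Smo-KO liver 3, lowest in Tymp, was highest in Cda, and control liver 1 was lowest. The log2 fold change was 0.27 ± 0.23 (standard error, edgeR adjusted p 0.637), with a 95% interval from 85.6% to 170% of control. It was 0.093 without Smo-KO liver 3, 0.13 without control liver 1 and 0.45 without Smo-KO liver 2 (edgeR unadjusted p 0.0341).

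The enzymes that break down the free bases were at nearly the same level in both groups. Dpyd (chr3:118562129-119432924, plus strand) ranged from 217 to 267 CPM in control and from 203 to 249 CPM in Smo-KO livers. Dpys (chr15:39768487-39857470, minus strand) ranged from 238 to 280 CPM and from 212 to 284 CPM. Upb1 (chr10:75401115-75441679, plus strand) ranged from 287 to 384 CPM and from 302 to 349 CPM. In each of the 3 the groups overlapped broadly. Dpyd averaged 237 ± 21.4 and 221 ± 20.0 CPM, with a 95% interval from 80.8% to 108% of the control level. The group means of Dpys were 256 ± 20.5 and 255 ± 31.9 CPM, and the interval was 85.0% to 116%. For Upb1 they were 323 ± 43.9 and 328 ± 20.9 CPM, with an interval from 86.8% to 118%. The intervals of these 3 were narrower than those of Tymp, Upp1, Upp2 and Cda. The adjusted p-values of the 3 in edgeR's test were 0.690, 0.985 and 0.957.

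**Figure D3:**
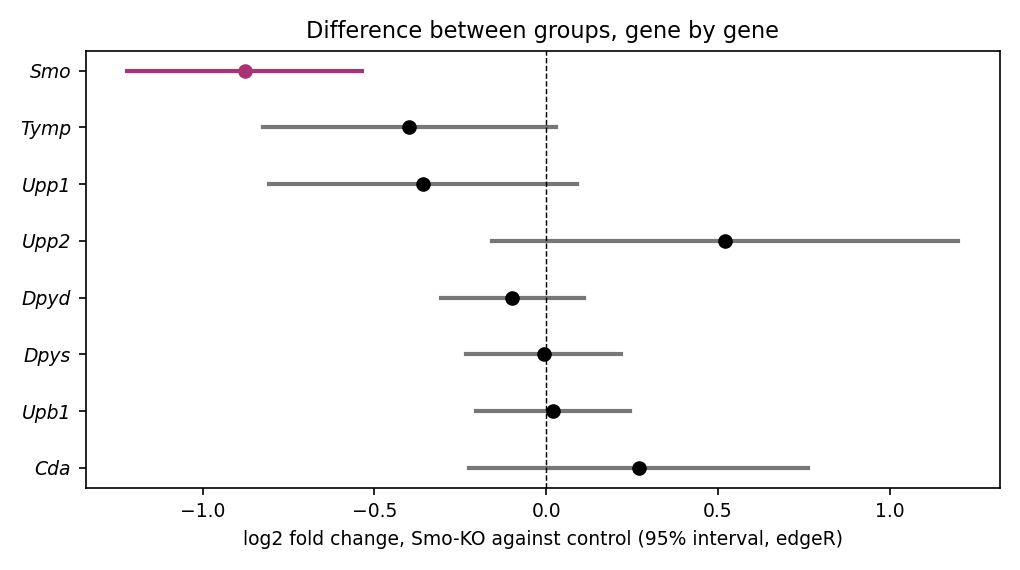
Log2 fold change of Smo-KO against control for Smo and the 7 breakdown genes, with dots for edgeR's estimate and lines for its 95% interval (n = 4 livers per group). The interval of Smo lies below 0, those of the 7 genes include 0, and those of Dpyd, Dpys and Upb1 are the narrowest.

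Levels of different genes were compared per kilobase of the longest annotated transcript. In control livers the order was Dpys (104 ± 8.32 CPM per kilobase), Upb1 (86.8 ± 11.8), Dpyd (52.7 ± 4.77), Upp2 (47.8 ± 26.0), Cda (20.9 ± 5.30), Tymp (13.4 ± 2.64) and Upp1 (4.50 ± 0.896). Neighbors in this order overlapped between livers, apart from Upb1 and Dpyd and from Tymp and Upp1. In Smo-KO livers Upp2 was at 68.5 ± 13.6 and Dpyd at 49.2 ± 4.46 CPM per kilobase, with overlapping livers, and with all exons merged they were at 25.1 ± 4.97 and 24.9 ± 2.26. The longest transcripts of Upp2 and Upb1 have only 2 and 4 exons, and the levels depend on the length used, not for these genes alone. With all exons merged, control livers had 68.4 (Dpys), 47.6 (Upb1), 26.6 (Dpyd) and 2.93 (Upp1) CPM per kilobase, and Tymp was unchanged. With merged exons the control order was the same, with Upp2 then at 17.5 and Cda at 17.1 CPM per kilobase. If no read over the shared exons was counted for Tymp, which was not tested, its reads divided by its unshared exon length alone would come to 23.1 CPM per kilobase in control livers, above both. This alternative was chosen after Sco2 had been seen at 0.

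Mouse by mouse, the genes did not move as 1 group. The log2 CPM of Tymp and Dpyd ran together across the 8 livers (Pearson's r = 0.82, Spearman's rho = 0.83, given as a description), and Cda ran opposite to Dpyd (r = -0.77, rho = -0.81) and, less closely by rank, to Tymp (r = -0.73, rho = -0.50). Upp2 and Upb1 had an r of 0.77 (rho = 0.71), and Upp1 and Upp2 one of -0.57 (rho = -0.40). These values share libraries and scaling. Smo-KO liver 3 was 0.82 below the mean of the 8 livers in log2 CPM of Tymp and 0.62 above it in Cda, and control liver 3 was 1.35 below it in Upp2.

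**Figure D4:**
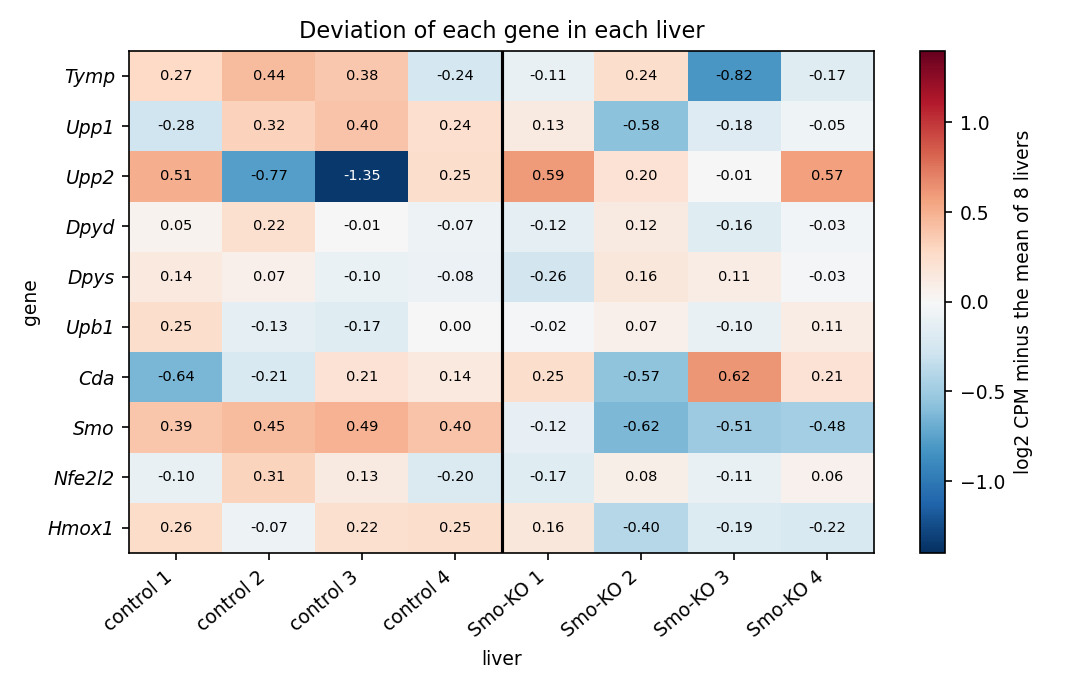
Deviation of each gene in each liver from its mean over the 8 livers, in log2 CPM (prior count 2), for the 7 breakdown genes, Smo, Nfe2l2 and Hmox1. Upp2 has the widest range, from -1.35 in control liver 3 to 0.59 in Smo-KO liver 1, while Dpyd, Dpys and Upb1 stay between -0.26 and 0.25.

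Among 10785 other genes with at least 5 CPM on average, those whose log2 CPM followed Tymp most closely were Steap3, a metal reductase, Med13l, a Mediator subunit, Kyat3, an aminotransferase, and Phlpp1, a phosphatase (r from 0.96 to 0.98 over 8 livers). Steap3 was at 63.1 CPM in control and 57.4 CPM in Smo-KO livers on average, lowest in Smo-KO liver 3 (44.9 CPM) and highest in control liver 2 (69.2 CPM), as Tymp was. Arrdc2 followed Upp2 most closely (r = 0.98), with 37.7, 25.1, 19.1 and 36.2 CPM in controls and 41.4, 33.0, 35.1 and 42.7 CPM in Smo-KO livers, and 1500011B03Rik came next (r = 0.97). For the other genes the closest were Pik3cb and F8 (Upp1), Asb6 and Lbp (Dpyd), Tmem69 and Iqgap2 (Dpys), Sdhb and Reep6 (Upb1), and Slc37a2 and Lpxn (Cda), with r between 0.94 and 0.98. With so many candidates and 8 livers, values of this size describe these livers only.

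The study followed Nrf2 (Nfe2l2) and heme oxygenase 1 (Hmox1) beside TP. Nfe2l2 was at 159, 211, 187 and 149 CPM in control and at 152, 181, 158 and 178 CPM in Smo-KO livers, with overlapping groups (edgeR log2 fold change -0.08, adjusted p 0.802). Hmox1 was at 109, 86.3, 106 and 108 CPM in control and at 101, 68.7, 79.5 and 78.2 CPM in Smo-KO livers. Control liver 2 lay below Smo-KO liver 1, and the others were apart (edgeR log2 fold change -0.32 ± 0.12, standard error, unadjusted p 0.0217, adjusted p 0.283).

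The rest of pyrimidine metabolism and the parallel purine pathway were read from 7 lists of 67 genes, of which 59 were tested. An unadjusted p under 0.05 was found for 5 of the 59 (8.47%), 1 higher and 4 lower in Smo-KO livers, where all genes gave 13.8%, 6.7% of them higher and 7.15% lower. In edgeR's test, 0 of the 59 passed an adjusted p of 0.05. Log2 fold changes were under 0.5 in size for 58 of the 59, with a median of -0.00145.

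Enzymes that use the end products were measured for 8 of 9 genes (3 higher, 5 lower, median log2 fold change -0.05), and Gadl1 is listed at 0. None of the 8 had an unadjusted p under 0.05 with all livers. Agxt2, which transaminates beta-aminoisobutyrate, was at 354 ± 27.2 and 379 ± 17.5 CPM. Abat, which does so for beta-alanine, averaged 194 ± 25.9 CPM in control and 164 ± 26.9 CPM in Smo-KO livers (edgeR log2 fold change -0.24, adjusted p 0.425). The log2 fold change of Abat was -0.34 without Smo-KO liver 2 (edgeR unadjusted p 0.0208) and -0.32 without control liver 4 (p 0.0286). It was -0.17 without Smo-KO liver 3 (p 0.223). Aldh6a1, the semialdehyde dehydrogenase that follows, was at 261 ± 20.1 and 278 ± 31.3 CPM. In all 3 the groups overlapped.

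Of the nucleotidases that release pyrimidine nucleosides, 6 of 8 were tested (3 higher, 3 lower) and none had an unadjusted p under 0.05. In salvage, the reverse route by which kinases return nucleosides to nucleotides, 11 of 12 genes were tested (6 higher, 5 lower). Tk1, the thymidine kinase of dividing cells, averaged 28.4 ± 7.05 and 32.7 ± 8.15 CPM (edgeR log2 fold change 0.21, adjusted p 0.678). Its log2 fold change was 0.058 without Smo-KO liver 4 and 0.35 without Smo-KO liver 2. Tk2, which acts on thymidine in mitochondria, averaged 41.1 ± 2.84 and 36.3 ± 3.04 CPM (edgeR log2 fold change -0.18, adjusted p 0.424). The groups of both overlapped. Cmpk2, a mitochondrial nucleotide kinase known as an interferon-induced gene, was the only salvage gene with an unadjusted p under 0.05 (0.0356, adjusted p 0.323 in edgeR's test, log2 fold change -0.92). Its values were 17.9, 73.2, 51.5 and 17.9 CPM in control and 21.0, 15.7, 29.6 and 18.5 CPM in Smo-KO livers. Control livers 2 and 3, the pair low in Upp2, carried the difference, and control livers 1 and 4 lay among the Smo-KO livers. Without control liver 2 the log2 fold change of Cmpk2 was -0.46 (edgeR unadjusted p 0.198), and DESeq2 gave an unadjusted p of 0.0884 with all livers.

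Nucleoside transporters were tested for 4 of 7 genes (1 higher, 3 lower), none with an unadjusted p under 0.05. Slc29a1, the equilibrative transporter that carried most of the reads of this list, was at 187 ± 37.9 and 185 ± 37.5 CPM. In new pyrimidine synthesis, all 6 genes were tested (3 higher, 3 lower). Cad, which catalyzes the opening steps, had 38.2, 37.7, 40.3 and 27.1 CPM in control and 32.6, 30.9, 24.1 and 25.6 CPM in Smo-KO livers. Control liver 4 lay below 2 of the 4 Smo-KO livers (log2 fold change -0.34, unadjusted p 0.0298, adjusted p 0.306 in edgeR's test). Without control liver 1, 2 or 3 or Smo-KO liver 3 or 4, edgeR's unadjusted p for Cad was between 0.0660 and 0.0900 (log2 fold changes -0.31 to -0.27). Without control liver 4 it was 0.00339 (log2 fold change -0.45). Dhodh, which oxidizes dihydroorotate, and Umps, which makes UMP from orotate, had log2 fold changes of -0.08 and -0.09.

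Deoxynucleotide supply and the copying of mitochondrial DNA were covered by 13 genes, all tested (8 higher, 5 lower). Samhd1, which degrades deoxynucleotides, had the smallest p of the 7 lists. It was at 77.3, 106, 108 and 86.5 CPM in control and at 73.8, 61.4, 77.7 and 69.0 CPM in Smo-KO livers. Only control liver 1 and Smo-KO liver 3 crossed (edgeR log2 fold change -0.42 ± 0.12, standard error, unadjusted p 0.00380, adjusted p 0.176). The remaining 12 had an unadjusted p above 0.05, the replicative polymerase (Polg), the helicase (Twnk) and the packaging factor (Tfam) of mitochondrial DNA among them.

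In purine breakdown and salvage, 11 of 12 genes were tested (5 higher, 6 lower) and 2 had an unadjusted p under 0.05. Xdh, the xanthine dehydrogenase that makes uric acid, was at 207, 252, 232 and 228 CPM in control and at 203, 200, 181 and 173 CPM in Smo-KO livers. All its Smo-KO values were below all its control values. Xdh was the 1 gene of the 59 tested in the 7 lists whose groups did not overlap, against 7.37% of all genes. Its log2 fold change was -0.28 (standard error 0.09), the adjusted p in edgeR's test 0.236 and the exact permutation p, two-sided, 0.0286, the smallest that 4 livers against 4 allow. Gda, which deaminates guanine, was at 45.7, 57.6, 41.7 and 51.4 CPM in control and at 47.3, 84.0, 72.0 and 56.7 CPM in Smo-KO livers (edgeR log2 fold change 0.40, adjusted p 0.301). Without Smo-KO liver 2, the highest, the log2 fold change of Gda was 0.25 (edgeR unadjusted p 0.119). Pnp, the purine counterpart of TP and uridine phosphorylase, averaged 117 ± 16.2 and 105 ± 4.33 CPM (edgeR log2 fold change -0.16, adjusted p 0.525). It was -0.063 without control liver 3 and -0.23 without control liver 1 (edgeR unadjusted p 0.0268).

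**Figure D5:**
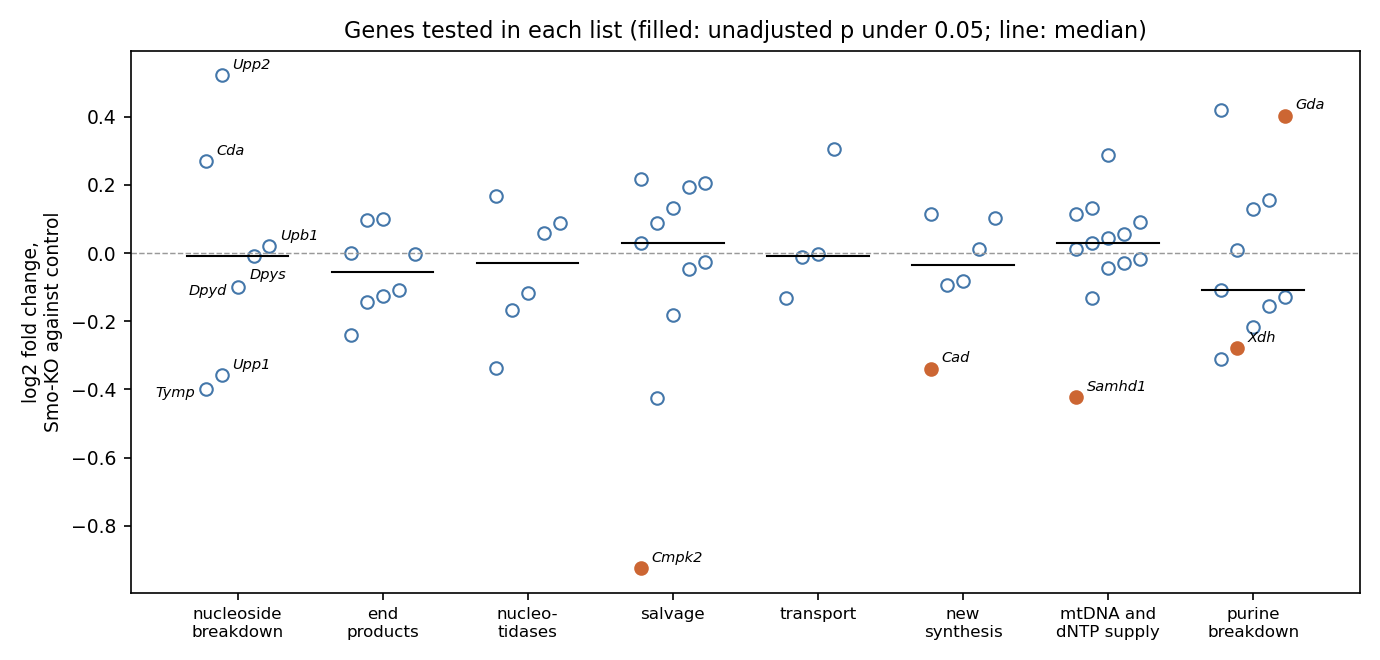
Log2 fold change of Smo-KO against control for every tested gene of the 7 breakdown genes and of the 7 lists around them, by list, with filled dots for an unadjusted p under 0.05 in edgeR's test and a line at each median. Filled dots mark Cmpk2, Cad, Samhd1, Xdh and Gda, and none of the 7 breakdown genes.

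Markers of the cell types of liver were read beside these genes. The summed level of 10 macrophage markers was 1718, 1635, 2186 and 1955 CPM in control and 2303, 1745, 1874 and 1917 CPM in Smo-KO livers, with Cd5l the most abundant and none at 0. Of the 10, 6 were higher and 4 lower, and 2 (Lyz2 and Trem2) did not overlap between groups, against 7.37% of all genes. Their log2 fold changes were 0.31 and 0.75, with adjusted p-values of 0.219 and 0.0957 by edgeR and 0.10 and 0.000156 by DESeq2. The 8 lymphocyte markers, Nkg7 the most abundant, summed to 44.4 ± 5.93 CPM in control and 26.4 ± 6.85 CPM in Smo-KO livers, and 6 of the 7 tested were lower. At an unadjusted p under 0.05, 5 of the 7 were lower, against 7.15% of all genes, 2 did not overlap between groups, and DESeq2 called 3 at an adjusted p under 0.05, against 1.36%. Endothelial markers, Clec4g the most abundant, summed to 204 ± 21.2 and 169 ± 55.9 CPM (7 of 7 lower, 1 at an unadjusted p under 0.05, against 13.8% of all genes). Stellate cell markers, with Col3a1 the most abundant, summed to 1050 ± 70.7 and 974 ± 142 CPM (4 of 8 lower, 1 at an unadjusted p under 0.05, against the same 13.8%). Cholangiocyte markers, mostly Spp1, summed to 149 ± 41.8 and 177 ± 46.0 CPM (4 of 5 higher, 0 at that p). Neutrophil markers summed to 22.7 ± 5.68 and 24.2 ± 3.10 CPM, with Csf3r the most abundant and Ly6g at 0 (2 of 3 lower, 0 at that p). Hepatocyte markers summed to 31262 ± 2259 and 29710 ± 1140 CPM, of which Alb made up 52.3%, and 6 of 8 were lower. Cps1, an enzyme of the urea cycle, was the 1 of these 8 at an unadjusted p under 0.05 and the 1 whose groups did not overlap, at 919 ± 50.6 and 733 ± 94.0 CPM (edgeR log2 fold change -0.33, adjusted p 0.218). Of all genes, 13.8% had such a p and 7.37% did not overlap. Along the lobule, pericentral markers, led by Cyp2e1, summed to 6677 ± 1341 and 7131 ± 506 CPM (4 of 7 higher). Slc1a2, a glutamate transporter, was the 1 of these 7 at an unadjusted p under 0.05 and without overlap, at 122 ± 32.7 and 178 ± 35.2 CPM (edgeR log2 fold change 0.55, adjusted p 0.247). The shares of all genes were again 13.8% at that p and 7.37% without overlap. Periportal markers, led by Pck1, summed to 2122 ± 633 and 1876 ± 389 CPM (5 of 6 lower, 0 at that p), with at most 1 read of Ass1 in any liver. Why Ass1 had so few reads in these counts was not tested. The part of these cell types in the values of Tymp and the other breakdown genes was not tested.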

How the data were processed

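For each liver the authors deposited raw read counts per gene symbol, without normalization, 1 list per mouse. The submitters' processing notes name fastp, STAR 2.7.5, featureCounts 2.0.1 and the build GRCm38, and the lists end with entries of the form that htseq-count writes. The annotation, the strand setting and the handling of reads on several genes are not given in the sources used here. Entries that name no gene held 10.9% ± 0.705 (control) and 11.7% ± 0.355 (Smo-KO) of all reads and were left out. Reads on genes did not differ between groups beyond the spread (exact permutation test, two-sided p = 0.257, n = 4 each). The floor of 3 reads lay at 0.297 to 0.366 CPM by library, and covers counting error only.

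Counts were scaled by TMM, filtered by filterByExpr and tested for genotype alone with glmQLFTest of edgeR 4.0.16 under R 4.3.3, and p-values were adjusted by Benjamini-Hochberg over 12977 genes. DESeq2 1.42.0 was an alternative. Standard errors and 95% intervals were derived from the F statistic of edgeR. Log2 CPM used a prior count of 2. Single values were compared by exact permutation over the 70 assignments of 4 of 8 livers. Positions and lengths came from GENCODE M21, upstream sequences from RefSeq (GRCm38.p6), and figures from matplotlib 3.10.9.

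The labels number the samples without naming animals, so p-values measure the spread between these samples. The 7 genes and all lists were chosen with earlier results of these data known. Outside them, genes were named by a rule: those of the 7 lists or beside Tymp with an unadjusted p under 0.05, a fixed set named whatever their p, the genes closest to each breakdown gene, and the leading marker of each cell type with any marker at 0. Polg, Twnk, Tfam, Lyz2, Trem2, Cps1, Slc1a2, Odf3b, Ncaph2, Gadl1 and Ass1 were named beyond it, after their values were seen. Alternatives were other scalings, filters and tests, the replicate number as a block, other lengths, and each liver left out in turn. Protein measurements of the study were not analysed here.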

Additional observations from a re-analysis of the deposited data

Results flagged for a closer look

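In 68 groups of 4 livers (34 measures in each genotype), 3 held a liver far from the other 3 by Dixon's criterion, where chance gives about 3.4. Hmox1 was at 86.3 CPM in control liver 2, against 106 to 109 CPM in the other controls. The summed pericentral markers were at 7884 CPM in Smo-KO liver 2, against 6834 to 6965 CPM in the other Smo-KO livers. Smo-KO liver 3, which had the lowest Tymp and the highest Cda, had 8203299 reads on genes, against 9367795 to 9543675. None of the 7 breakdown genes had a liver that far from its group. No explanation of these values was tested.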

How the results depend on the processing

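Tymp kept its direction and missed an adjusted p of 0.05 under all 14 alternatives, with log2 fold changes from -0.56 (without Smo-KO liver 2) to -0.24 (without Smo-KO liver 3) and adjusted p-values from 0.282 to 0.695 (edgeR and DESeq2). No breakdown gene passed under any alternative. At an unadjusted p under 0.05 their number, 0 as reported, was 1 with no filter (Tymp) and 2 with the replicate number as a block (Tymp, and Upp2 at a log2 fold change of 0.67), and it ran from 0 to 2 with each liver left out in turn (Upp1 and Upp2 without control liver 1, Tymp without control liver 4, Tymp and Cda without Smo-KO liver 2). Of all genes, 1797 of 12977 had such a p as reported, 2092 of 18284 with no filter and 2115 of 12977 with the block. With a liver left out, the all-gene number ran from 1244 of 13100 (without Smo-KO liver 3) to 2332 of 13067 (without Smo-KO liver 1). Upp1, Upp2, Dpyd and Cda kept their directions, and Dpyd ran from -0.16 to -0.033 with each liver left out. Samhd1 and Xdh stayed at an unadjusted p under 0.05 in all 14 alternatives. Cmpk2, Cad, Gda and Hmox1 did not with at least 1 liver left out, nor did Cmpk2 with the replicate block (log2 fold change -0.72, edgeR p 0.0543) or DESeq2. Apart from DESeq2, the alternatives were not run for single marker genes. With each liver left out, the log2 fold change of Dpys ran from -0.063 to 0.077, that of Upb1 from -0.029 to 0.11, Nfe2l2 from -0.15 to 0.022, Dhodh from -0.20 to 0.055 and Slc29a1 from -0.13 to 0.10, and all of these changed sign. In the same fits the 7 lists held 2 (without control liver 3) to 8 (without control liver 1 or Smo-KO liver 1) genes at an unadjusted p under 0.05, with 3 without control liver 2, Smo-KO liver 3 or Smo-KO liver 4, against 5 as reported. The all-gene number at that p moved too. It was 1383 of 13077 without control liver 3, 1946 of 13093 without control liver 1 and 2332 of 13067 without Smo-KO liver 1. It was 1582 of 13077 without control liver 2, 1244 of 13100 without Smo-KO liver 3 and 1334 of 13088 without Smo-KO liver 4. Over all genes, the number with an adjusted p under 0.05, 0 as reported, was 61 with no filter, 163 with DESeq2's Wald test, 8 with the replicate block and 0 to 78 with a liver left out (78 without Smo-KO liver 1, 5 without control liver 1, 4 without Smo-KO liver 3). Smo had an adjusted p under 0.05 with no filter, with DESeq2 and without Smo-KO liver 1. The cause of these changes was not tested. The replicate numbers do not pair the mice by any label, and deviations of same-numbered livers correlated at 0.10, 0.19, 0.06 and 0.11, without each liver being closest to its own number. Under every scaling run, the median over all genes stayed within 0.1 of its reported value. Of the 7 genes, Upp1 had the fewest reads, 30 to 67 per liver.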
